A study of Homo sapiens with 6 samples.

Results

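Interferon-stimulated genes are the antiviral genes that cells switch on when interferon, or a sensor of foreign or misplaced nucleic acid, signals to the nucleus. Type I and III interferons bind receptors that activate JAK kinases, and these phosphorylate STAT2 and other STAT proteins. Together with IRF9 they form the complex ISGF3, which binds the interferon-stimulated response element (ISRE) in the promoters of these genes, while type II interferon acts mainly through the gamma-activated site (GAS). DNA damage by anthracyclines such as doxorubicin, which poisons topoisomerase II, is known to engage this programme in several cell types. The 37 genes described here were chosen by symbol as well-known members of it, and all 37 were found among the 58299 gene IDs of the count table.

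Expression was measured by RNA-seq in AC16 cells, a human line made by fusing adult ventricular heart cells with transformed fibroblasts. Cells received 100 nM doxorubicin for 48 h (3 libraries) or the 0.1% DMSO vehicle for 48 h (3 libraries), with no other agent and no change of genotype in either group. AC16 is a single proliferating line, and nothing in the labels says whether the replicates were separate cultures, so the p-values below measure the spread between these libraries, which may be technical. The libraries held 17252862 to 18665979 reads counted to genes with doxorubicin and 17929419 to 19571731 with DMSO. CDKN1A and MDM2, targets of p53 used as a check of the treatment, were 35.9-fold and 16.8-fold higher with doxorubicin (edgeR adjusted p = 2.5e-16 and 6.7e-16). Of 10 cardiomyocyte markers 2 passed the filter on low counts, and MYH6, MYH7, MYL2 and MYL7 had 6 or fewer counts over all 6 libraries, so these sarcomere genes were close to absent. The 2 that passed, TTN and NPPB, were 1.41-fold and 10.5-fold higher with doxorubicin. Of the untested ones, TNNI3 and ACTN2 each had 16 counts with doxorubicin and 1 with DMSO. NPPA had 5 and 14, and TNNT2 had 3 and 4. The marker sum was 15.3 to 17.1 CPM (counts scaled to a common library size) with doxorubicin and 6.39 to 7.54 CPM with DMSO. Fibroblast markers summed to 5543.3 to 8075.0 CPM with doxorubicin and 15344.3 to 17857.5 CPM with DMSO. COL1A1 made up much of this, averaging 3155.8 CPM with doxorubicin and 9864.1 CPM with DMSO. Of the 8 markers 6 were called lower, against 32.0% of all tested genes. DCN and LUM were not called, at 22.7 and 21.5 CPM with doxorubicin and 16.2 and 44.1 CPM with DMSO. In such bulk samples, a smaller share of cells expressing a gene and less RNA per cell cannot be told apart.

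Levels are given as CPM scaled by the trimmed mean of M-values (TMM). Marker sums and the limits for 0 counts use library totals alone. A gene was called higher or lower at a Benjamini-Hochberg adjusted p under 0.05 in edgeR's quasi-likelihood test. The adjustment was over all 15358 genes that passed the filter. Of the 37 interferon-stimulated genes 31 passed. With doxorubicin 20 of the 31 (64.5%) were higher, 2 were lower and 9 were not called, where 64.7% of all tested genes were called, 32.7% higher and 32.0% lower. At least 2-fold, 14 were higher and 1 was lower, against 14.2% and 6.26% of all tested genes. The median log2 fold change of the 31 was 0.77, against -0.0013 over all tested genes. In 20 of the 31 every doxorubicin library lay above every DMSO library and in 3 every one lay below, which held for 34.8% and 34.3% of all tested genes. Among the 20 members averaging at least 10 CPM 13 were higher and 2 lower, and among the 11 below 10 CPM 7 were higher and 0 lower. The shares called among all tested genes at these levels were not computed, so nothing is read from this split.

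A pair of libraries stood apart for these genes and are named wherever a call rests on them. Doxorubicin replicate 1 was the highest of its group for 22 of 31 members. DMSO replicate 3 was at least 2-fold above the mean of the other DMSO libraries for 6 members, 5 of them under 10 CPM. Without doxorubicin replicate 1 the calls were 20 higher and 2 lower, and without DMSO replicate 3 they were 22 higher and 2 lower.

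**Figure D1:**
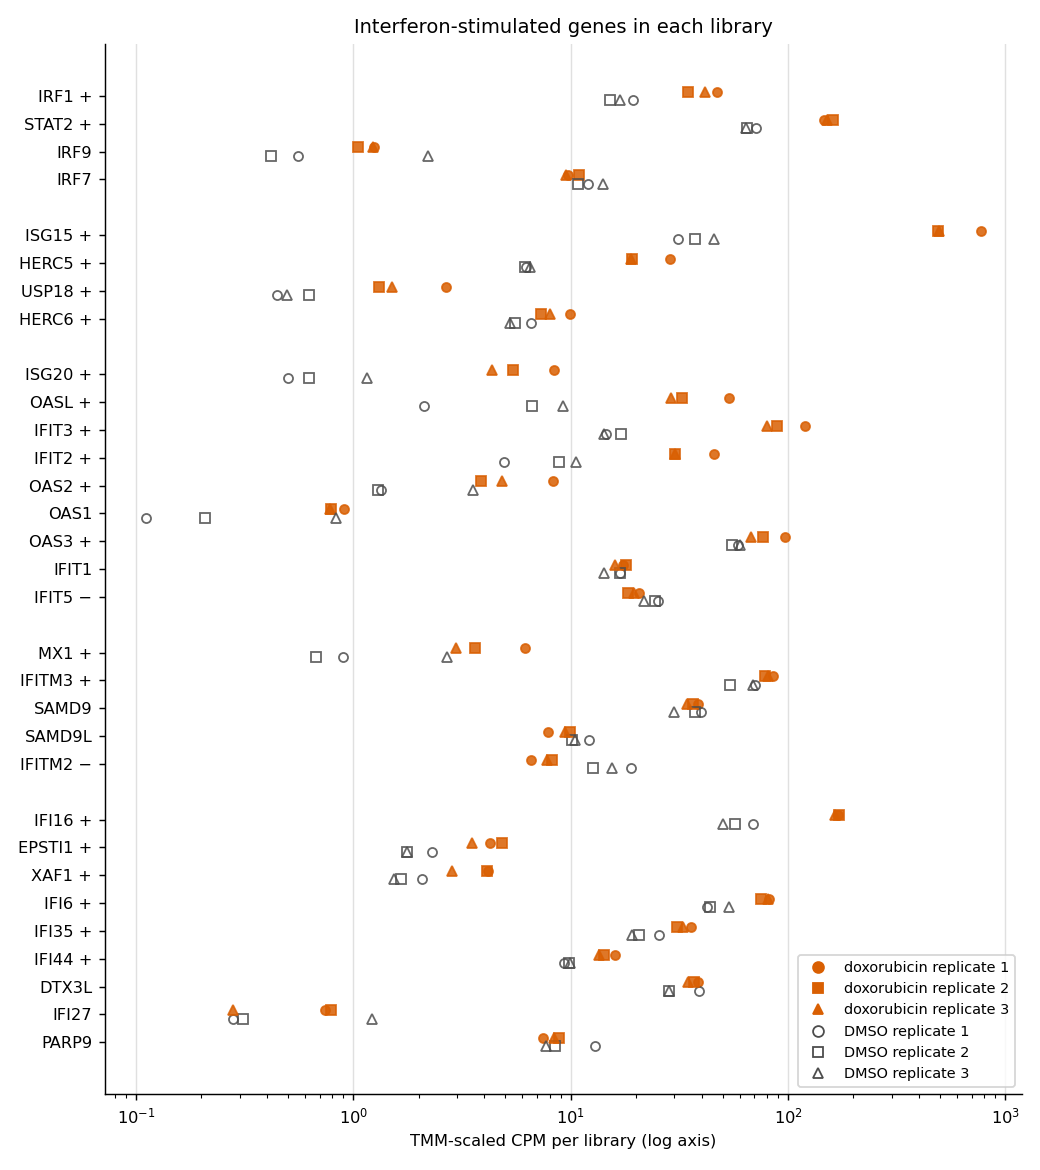
TMM-scaled CPM of each tested interferon-stimulated gene in each of the 6 libraries (log axis), with 1 point per library in the colour of its group. ISG15 shows the widest gap between groups, at 489 CPM or more in every doxorubicin library and 45.7 CPM or less in every DMSO library.

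**Figure D2:**
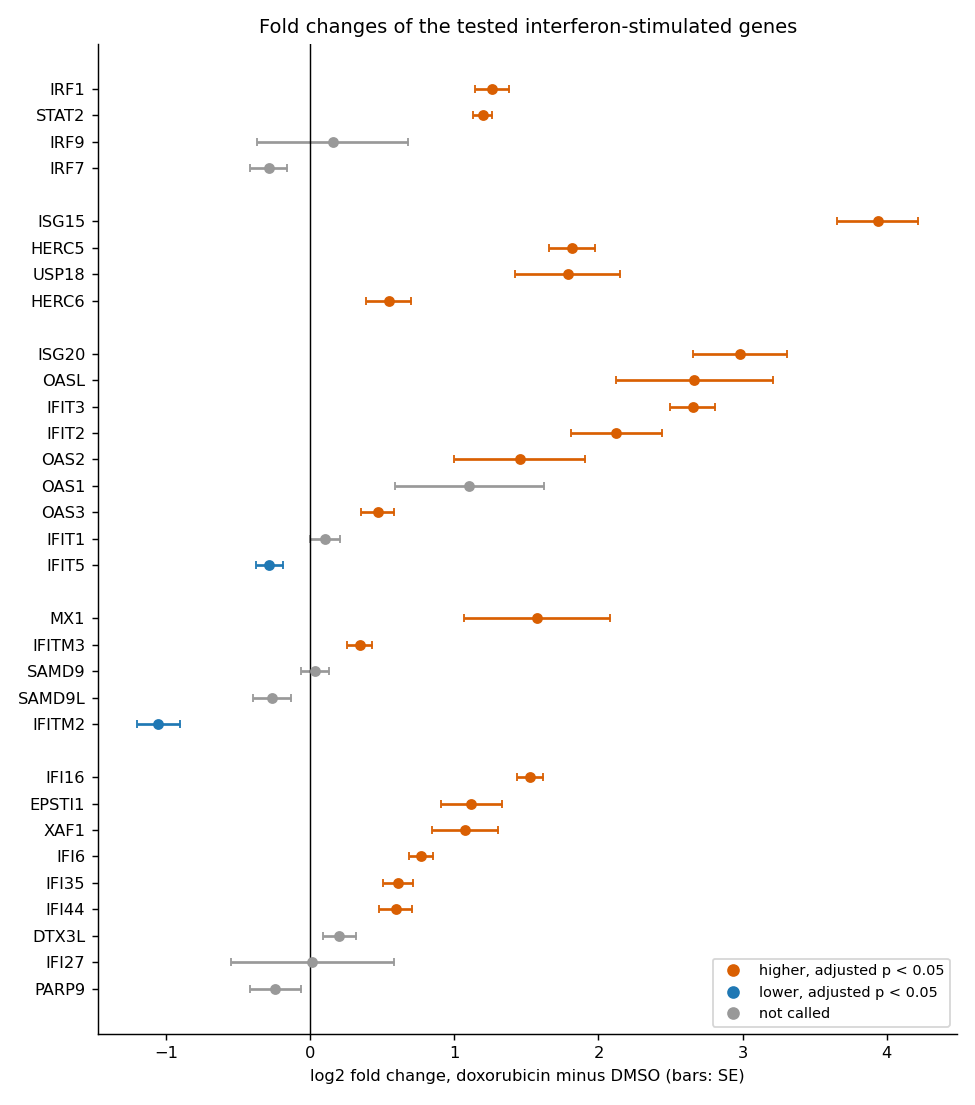
Log2 fold change, doxorubicin minus DMSO, of the 31 tested members with its standard error (bars), by call. ISG15 (3.94) stands farthest right and IFITM2 (-1.05) farthest left.

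The promoters are shown because these genes are grouped by their response to ISGF3, and the letters of its element can be looked for directly. RefSeq start-site windows of 250 bases before to 50 bases after the start (GRCh38.p14) were given for 30 of the 37 members. IFIT2, IFITM2, IRF7, MX2, OAS2, OASL and USP18 had none. Each window was searched on both strands for the ISRE core, 2 copies of GAAA with any 2 bases between them, and for the GAS core TTCNNNGAA. The motifs were counted separately, and 6 of the 11 GAS matches in member windows overlapped an ISRE match. The ISRE core was found in 20 of 30 members (66.7%), against 4.38% of the 27305 genes with a window. The GAS core was found in 9 of 30 members, against 9.38% of those genes. Stretches of 60 bases follow for 6 members that rose, 2 that were not called and 1 that fell, read 5′ to 3′ along the gene, with ISRE matches in capitals. A match on the opposite strand reads as 2 copies of TTTC with 2 bases between them, and in ISG15 and HERC5 a pair of overlapping matches forms a single run of capitals.
ISG15: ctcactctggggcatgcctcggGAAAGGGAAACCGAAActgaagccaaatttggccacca
HERC5: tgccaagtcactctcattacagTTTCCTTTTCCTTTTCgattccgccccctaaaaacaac
IFIT3: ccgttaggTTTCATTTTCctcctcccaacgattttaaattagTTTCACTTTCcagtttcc
IFI6: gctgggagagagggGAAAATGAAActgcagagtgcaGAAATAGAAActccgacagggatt
ISG20: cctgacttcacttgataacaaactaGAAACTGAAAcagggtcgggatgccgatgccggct
OAS3: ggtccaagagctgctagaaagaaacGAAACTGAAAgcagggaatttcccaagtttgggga
IFIT1: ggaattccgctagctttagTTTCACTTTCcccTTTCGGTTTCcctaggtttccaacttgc
SAMD9: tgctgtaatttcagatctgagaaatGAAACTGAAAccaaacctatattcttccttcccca
IFIT5: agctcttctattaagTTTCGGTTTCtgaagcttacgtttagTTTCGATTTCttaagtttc

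These stretches lie at chr1:1013362-1013421 for ISG15, chr4:88456972-88457031 for HERC5 and chr10:89327833-89327892 for IFIT3. ISG20 is at chr15:88638922-88638981, OAS3 at chr12:112938306-112938365, IFIT1 at chr10:89392488-89392547 and IFIT5 at chr10:89414508-89414567. All of these are on the plus strand, while IFI6 (chr1:27672262-27672321) and SAMD9 (chr7:93118081-93118140) are on the minus strand. The ISG15 stretch covers bases -135 to -76 from the RefSeq start and the IFIT5 stretch bases -60 to -1. An ISRE match was present in promoters of every direction of change: of the 16 tested members with a match 10 were higher, 1 was lower and 5 were not called. Of the 9 tested members with a window and no match 6 were higher and 3 were not called. The median log2 fold change was 0.53 with a match and 1.07 without. The strongest riser of those with a window and no match was IFI16, at 1.52. Tested members without a window are in neither median. Of these, OASL, IFIT2, USP18 and OAS2 rose, at log2 2.665, 2.12, 1.79 and 1.45. IRF7 was not called (-0.29) and IFITM2 fell (-1.05). The medians thus leave out strong risers, and nothing is read from their order. IFIT1 and SAMD9, which were not called, and IFIT5, which fell, carry the same core as ISG20 and OAS3, which rose.

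**Figure D3:**
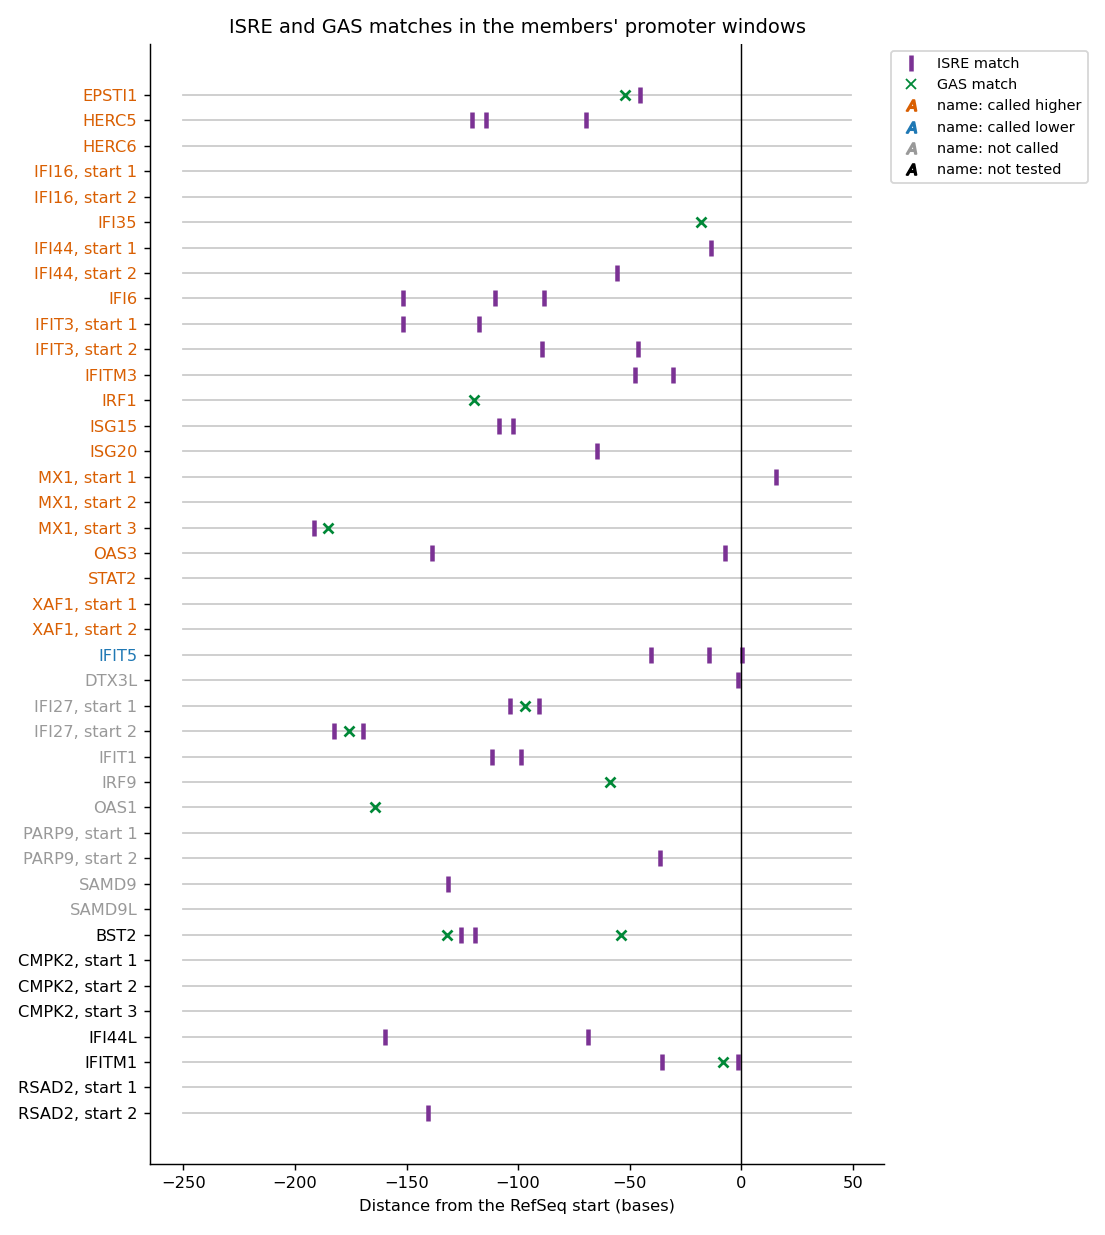
Positions of ISRE and GAS core matches in the RefSeq promoter windows of the members, as the distance in bases from the start, with 1 row per window. ISRE matches appear in 20 of 30 members, and GAS matches in 9 of 30.

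Of the 4 signalling factors 2 rose and 2 were not called. STAT2, the STAT found only in type I and III interferon signalling, had 147, 161 and 151 CPM in doxorubicin replicates 1 to 3, against 71.0, 64.9 and 64.0 CPM in DMSO replicates 1 to 3. The groups were far apart, and STAT2 rose 2.29-fold (log2 1.20 ± 0.07 SE, edgeR adjusted p = 2.0e-10). IRF1, a transcription factor induced through its own GAS, had 47.2, 34.6 and 41.5 CPM with doxorubicin and 19.5, 15.1 and 16.95 CPM with DMSO. It rose 2.39-fold (log2 1.26 ± 0.12 SE, edgeR adjusted p = 3.5e-07), and its window held a GAS match. Counting did not use strand, and IRF1 exons overlap other genes, IRF1-AS1 on the opposite strand among them. Reads in the shared bases could not be assigned by strand, so the IRF1 level may be too low.

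IRF7, which amplifies interferon-alpha transcription, had 9.77, 10.9 and 9.51 CPM with doxorubicin and 11.96, 10.8 and 14.1 CPM with DMSO. The groups overlapped, and it was not called (log2 -0.29 ± 0.13 SE, edgeR adjusted p = 0.0586, 0.0291 to 0.256 over the alternatives). It was called lower only without the filter on low counts (0.0471) and without DMSO replicate 2 (0.0291). IRF9, the DNA-binding partner of the STATs in ISGF3, had 1.25, 1.06 and 1.23 CPM with doxorubicin and 0.559, 0.417 and 2.21 CPM with DMSO. DMSO replicate 3 alone exceeded the doxorubicin libraries, and IRF9 was not called (log2 0.16, edgeR adjusted p = 0.811). Without that library its log2 fold change was 1.26 (edgeR adjusted p = 0.0131). Other genes cover 48.4% of IRF9 exon bases, so its level may be too low.

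All 4 members of the ISG15 conjugation system rose, by a median log2 fold change of 1.80. ISG15 (chr1:1001138-1014541, GRCh38), a ubiquitin-like protein that is joined to other proteins and also secreted, had 770.3, 489 and 494 CPM with doxorubicin and 31.1, 37.5 and 45.7 CPM with DMSO. Every doxorubicin library was more than 10-fold above every DMSO library, with replicate 1 the highest. It rose 15.3-fold (log2 3.94 ± 0.28 SE, edgeR adjusted p = 1.5e-04), the largest fold change of the 31 members. HERC5, the main human ligase that attaches ISG15, had 28.6, 19.2 and 19.0 CPM with doxorubicin and 6.20, 6.20 and 6.52 CPM with DMSO. It rose 3.52-fold (log2 1.82 ± 0.16 SE, edgeR adjusted p = 1.4e-07), again with doxorubicin replicate 1 on top. USP18, the protease that removes ISG15 and dampens the type I receptor, had 2.67, 1.32 and 1.51 CPM with doxorubicin and 0.447, 0.625 and 0.497 CPM with DMSO. It rose 3.45-fold from this low level (edgeR adjusted p = 4.1e-04). HERC6, which does the ligase's work in mouse, had 9.94, 7.34 and 8.002 CPM with doxorubicin and 6.54, 5.52 and 5.25 CPM with DMSO, a smaller rise of 1.46-fold (edgeR adjusted p = 0.00591). The other enzymes of the same chain, from the wider lists below, were higher too: the activating enzyme UBA7 by 0.99 and the conjugating enzyme UBE2L6 by 1.45 on the log2 scale (edgeR adjusted p = 1.3e-05 and 1.4e-08).

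Of the 9 effectors that sense or destroy RNA 6 rose, 1 fell and 2 were not called, and members of the same family moved differently. The 4 IFIT genes, whose products bind viral RNA, lie within 137.3 kb (chr10:89283694-89421001). IFIT3 had 119, 89.2 and 80.3 CPM with doxorubicin and 14.5, 16.98 and 14.3 CPM with DMSO. IFIT2 had 45.8, 30.3 and 30.2 CPM with doxorubicin and 4.92, 8.80 and 10.6 CPM with DMSO. Both were clear of overlap, rising 6.29-fold for IFIT3 and 4.36-fold for IFIT2 (edgeR adjusted p = 7.1e-07 and 0.00186). IFIT1, which recognises RNA caps that lack host methylation, had 17.4, 17.9 and 16.1 CPM with doxorubicin and 16.8, 16.8 and 14.3 CPM with DMSO. These values overlapped, and IFIT1 was not called (log2 0.10 ± 0.10 SE, edgeR adjusted p = 0.415). IFIT5 had 20.6, 18.3 and 19.6 CPM with doxorubicin and 25.2, 24.4 and 21.7 CPM with DMSO. It fell slightly (log2 -0.28 ± 0.09 SE, edgeR adjusted p = 0.0151), a call lost without DMSO replicate 1 (0.0518), DMSO replicate 2 (0.0507) or doxorubicin replicate 2 (0.0702). Differences between the neighbours were not tested.

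The OAS enzymes make the short oligoadenylates that activate RNase L, and OASL is a relative that lacks this activity and enhances RIG-I signalling. OASL had 53.4, 32.6 and 28.8 CPM with doxorubicin and 2.12, 6.67 and 9.22 CPM with DMSO. The groups did not overlap despite a wide spread in both, and OASL rose 6.34-fold (edgeR adjusted p = 0.0113). OAS3 had 97.2, 76.7 and 67.4 CPM with doxorubicin and 58.8, 55.5 and 60.1 CPM with DMSO, a 1.38-fold rise (edgeR adjusted p = 0.0037). OAS2 had 8.30, 3.85 and 4.81 CPM with doxorubicin and 1.34, 1.30 and 3.54 CPM with DMSO. Its groups were separated only by the gap between doxorubicin replicate 2 and DMSO replicate 3. OAS2 was called higher (log2 1.45 ± 0.45 SE, edgeR adjusted p = 0.0246), but not without DMSO replicate 1 (0.0784) or DMSO replicate 2 (0.0695), and its log2 fold change was 2.08 without DMSO replicate 3. OAS1 stayed under 1 CPM in all 6 libraries and was not called (log2 1.11 ± 0.52 SE, edgeR adjusted p = 0.0720). Without DMSO replicate 3, its highest DMSO library, OAS1 was called at log2 2.30 (edgeR adjusted p = 0.00213). ISG20, an exonuclease that degrades viral RNA, had 8.41, 5.44 and 4.37 CPM with doxorubicin and 0.503, 0.625 and 1.16 CPM with DMSO. It rose 7.90-fold (log2 2.98 ± 0.32 SE, edgeR adjusted p = 1.7e-06), second to ISG15 among the members.

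The 10 genes that block virus entry, replication or release had the lowest median of the 5 role classes: 5 had too few counts to test, and of the other 5 tested 2 rose, 1 fell and 2 were not called (median log2 fold change 0.03). IFITM3, a membrane protein that stops fusion of virus in endosomes, had 85.7, 78.6 and 81.1 CPM with doxorubicin and 70.4, 54.2 and 68.9 CPM with DMSO. It rose 1.27-fold (log2 0.34 ± 0.09 SE, edgeR adjusted p = 0.00309). Its paralog IFITM2 had 6.59, 8.23 and 7.78 CPM with doxorubicin and 18.9, 12.7 and 15.5 CPM with DMSO, and fell by 1.05 ± 0.15 (SE) on the log2 scale (edgeR adjusted p = 1.2e-05). The groups did not overlap for either gene, and the pair lies within 19.9 kb (chr11:307631-327537). The IFITM genes are near-identical over much of their length, so reads split between them are uncertain, and 22.8% of IFITM2 exon bases also lie in other genes.

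MX1, a dynamin-like GTPase that restricts influenza virus, had 6.14, 3.64 and 2.97 CPM with doxorubicin and 0.894, 0.677 and 2.71 CPM with DMSO. It was called higher (log2 1.58 ± 0.51 SE, edgeR adjusted p = 0.0270), with DMSO replicate 3 almost level with doxorubicin replicate 3. That call was lost without DMSO replicate 1 (0.0894), DMSO replicate 2 (0.0559) or doxorubicin replicate 2 (0.0551), and the log2 fold change was 2.42 without DMSO replicate 3. SAMD9, a restriction factor for poxviruses, had 38.5, 36.7 and 34.3 CPM with doxorubicin and 39.7, 37.4 and 29.9 CPM with DMSO. Its neighbour SAMD9L had 7.84, 9.97 and 9.46 CPM with doxorubicin and 12.2, 10.1 and 10.5 CPM with DMSO. Neither was called (edgeR adjusted p = 0.786 and 0.0941), though the SAMD9L groups did not overlap.

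The untested members of the same class gave only handfuls of reads. MX2, a restriction factor for HIV, had raw counts of 9, 9 and 3 with doxorubicin and 2, 4 and 18 with DMSO. BST2, which tethers budding virus to the cell surface, had 5, 2 and 10 counts with doxorubicin and 2, 1 and 22 with DMSO. RSAD2, whose product makes a chain-terminating nucleotide, had 1, 13 and 3 counts with doxorubicin and 0, 2 and 7 with DMSO. For IFITM1 there were 6, 7 and 5 counts with doxorubicin and 9, 7 and 17 with DMSO. CMPK2, a nucleotide kinase next to RSAD2, had 0, 0 and 1 counts with doxorubicin and 0, 0 and 2 with DMSO. At such counts no difference between the groups was detectable, and in each of these genes DMSO replicate 3 was the highest DMSO library.

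Of the remaining 10 members, which sense DNA, act in apoptosis or have other roles, 6 rose, 3 were not called and 1 was not tested. IFI16, a sensor of DNA in the nucleus and cytosol, had 170, 172 and 165 CPM with doxorubicin and 69.0, 57.1 and 50.3 CPM with DMSO. It rose 2.88-fold (log2 1.52 ± 0.09 SE, edgeR adjusted p = 3.8e-09), with a coefficient of variation among doxorubicin libraries of 2.12%. IFI6, which protects cells from apoptosis and restricts flaviviruses, had 81.8, 75.3 and 81.3 CPM with doxorubicin and 42.6, 43.7 and 53.7 CPM with DMSO. It rose 1.70-fold (log2 0.77 ± 0.08 SE, edgeR adjusted p = 7.6e-07), without overlap. XAF1, a pro-apoptotic partner of XIAP, had 4.15, 4.12 and 2.85 CPM with doxorubicin and 2.07, 1.67 and 1.55 CPM with DMSO, a 2.11-fold rise (edgeR adjusted p = 6.1e-04). Other genes cover 38.3% of XAF1 exon bases.

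EPSTI1 had 4.26, 4.86 and 3.53 CPM with doxorubicin and 2.29, 1.77 and 1.77 CPM with DMSO, a 2.17-fold rise (edgeR adjusted p = 2.1e-04). IFI35, which binds the STAT partner NMI, had 35.8, 30.8 and 33.0 CPM with doxorubicin and 25.6, 20.5 and 19.2 CPM with DMSO. IFI44 had 16.0, 14.3 and 13.5 CPM with doxorubicin and 9.33, 9.79 and 9.89 CPM with DMSO. Their rises were the smaller ones of the class, 1.53-fold for IFI35 and 1.51-fold for IFI44 (edgeR adjusted p = 9.9e-05 and 2.3e-04). IFI44L, the neighbour of IFI44, was not tested, with 15, 7 and 5 counts with doxorubicin and 4, 5 and 11 with DMSO.

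PARP9 and DTX3L, which act together as an ADP-ribosyl transferase and ubiquitin ligase complex, overlap on opposite strands and neither was called. PARP9 had 7.44, 8.81 and 8.34 CPM with doxorubicin and 13.0, 8.44 and 7.73 CPM with DMSO (edgeR adjusted p = 0.249). DTX3L had 38.5, 36.8 and 34.5 CPM with doxorubicin and 39.0, 28.3 and 28.2 CPM with DMSO (edgeR adjusted p = 0.136). DMSO replicate 1 was the highest of its group for both, and without it DTX3L was called higher (log2 0.37, edgeR adjusted p = 0.00229). IFI27, a mitochondrial protein strongly induced by interferon-alpha in blood, stayed near or under 1 CPM in every library and was not called (log2 0.02, edgeR adjusted p = 0.983). Without DMSO replicate 3 its log2 fold change was 1.01.

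Levels can be compared between genes only per length, as mean CPM per kb of summed exon length (± SD, n = 3). With doxorubicin ISG15 led at 620.2 ± 171 CPM per kb, followed by IFI6 at 91.9 ± 4.19, IFITM3 at 60.7 ± 2.66, IFIT3 at 36.4 ± 7.72 and IFI16 at 31.9 ± 0.677 CPM per kb. Of these neighbours IFIT3 and IFI16 did not differ beyond their spread. With DMSO the first 3 were IFI6 at 53.95 ± 7.05, IFITM3 at 47.85 ± 6.63 and ISG15 at 40.4 ± 7.74 CPM per kb, and neighbours in this order lay within their spread. IFIT3 stood at 5.78 ± 0.561 CPM per kb with DMSO.

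The libraries of a group differed more in these genes, in the median, than in all genes. The median coefficient of variation of the 31 members was 12.2% with doxorubicin and 15.5% with DMSO, against 8.33% and 8.14% over all tested genes. Among genes averaging at least 10 CPM it was 8.18% with doxorubicin and 13.4% with DMSO for 20 members, against 5.96% and 5.68% for all 9567. Doxorubicin replicate 1 was the highest of its group in 22 of the 31 members, replicate 2 in 9 and replicate 3 in 0. Over all tested genes these libraries were highest in 37.1%, 32.7% and 30.2%. The median log2 difference of replicate 1 from the mean of the other doxorubicin libraries was 0.19 over the members and -0.01 over all genes, on a CPM + 0.1 scale. For the 20 members that rose it was 0.40, with replicate 1 highest in 17, against 0.06 and 51.8% of all genes called higher. ISG15, HERC5, USP18, the IFIT and OAS risers, ISG20 and MX1 were among those highest in replicate 1, while STAT2, IFI16 and EPSTI1 were highest in replicate 2.

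DMSO replicate 3 stood out mainly for the scarce members. Among the 11 members under 10 CPM its median log2 difference from the other DMSO libraries was 0.93, against -0.02 over the 5791 tested genes under 10 CPM. It was at least 2-fold above the mean of the other DMSO libraries for 6 members, against 0.755% of all tested genes and 1.92% of those under 10 CPM. These were IRF9 (log2 difference 1.99), OAS1 (1.86), IFI27 (1.73), MX1 (1.68), OAS2 (1.35) and OASL (1.27). IFI27 had 13, 15 and 5 counts with doxorubicin and 5, 6 and 22 with DMSO. It passed the filter only through DMSO replicate 3, so its place here partly follows from the filter. None of the 31 tested members was 2-fold above the mean of its group's other libraries in any of the other 5 libraries. Among the 20 members at 10 CPM or more the median difference of DMSO replicate 3 was -0.01. Of the leukocyte markers, PTPRC, the pan-leukocyte gene CD45, had 24, 24 and 41 counts with doxorubicin and 9, 15 and 29 with DMSO. The other tested ones were not highest in DMSO replicate 3: CD14 had 18, 17 and 16 counts with doxorubicin and 21, 30 and 16 with DMSO. CSF1R had 23, 25 and 20 counts with doxorubicin and 34, 42 and 36 with DMSO, and was called lower (edgeR adjusted p = 0.022). The 10 leukocyte markers summed to 4.81 to 5.49 CPM with doxorubicin and 3.85 to 4.91 CPM with DMSO, 3 of them passed the filter, and CD3E and CLEC4C had 1 count each over all libraries. Their part in the difference was not tested.

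**Figure D4:**
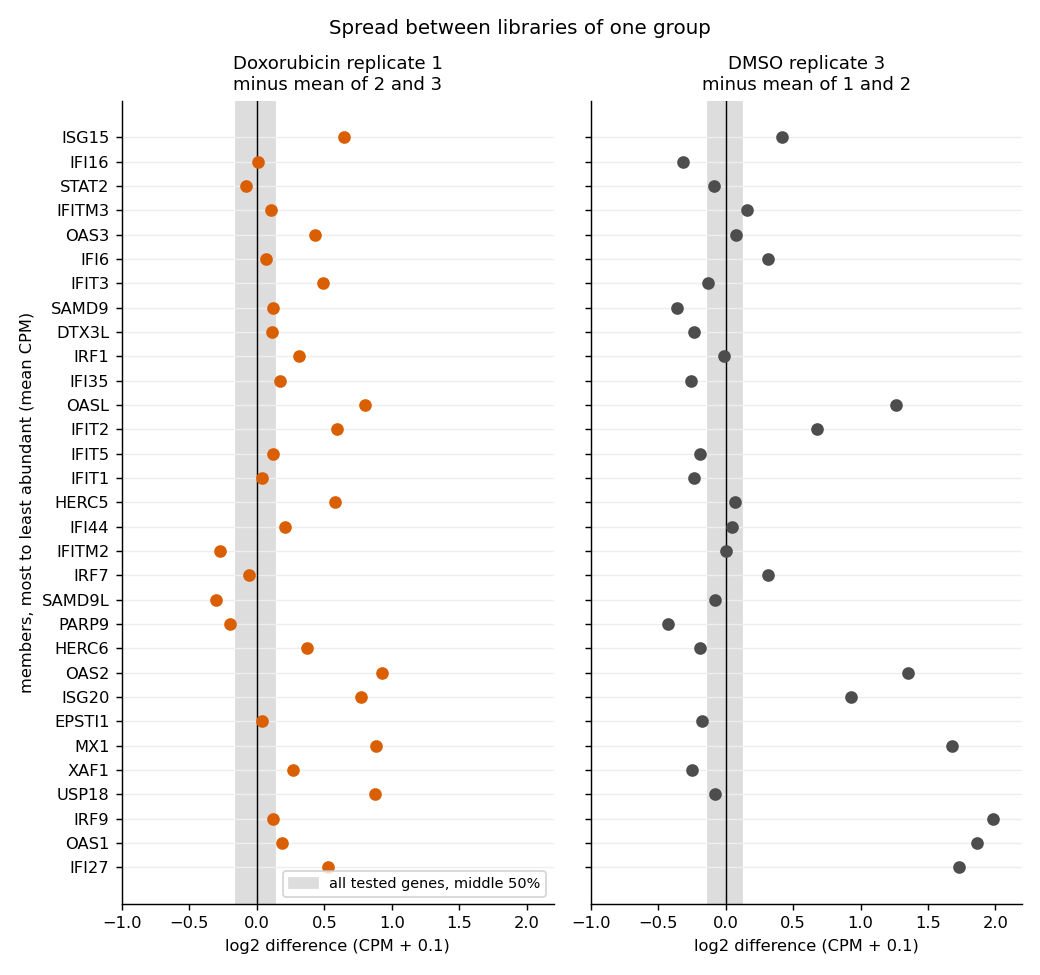
Log2 difference (CPM + 0.1) of a library from the mean of the other libraries of its group for each member, from most to least abundant, for doxorubicin replicate 1 and for DMSO replicate 3. Points for doxorubicin replicate 1 lie mostly right of 0 (median 0.19), and those for DMSO replicate 3 spread right mainly among the scarce members at the bottom (median 0.93 under 10 CPM).

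Interferon genes gave few counts with either treatment, in 8 of 21 genes with doxorubicin and in 1 with DMSO. None of 21 type I, II and III interferon genes passed the filter, and 13 had 0 counts in all 6 libraries, IFNB1, IFNL1 and IFNL2 among them. A count of 0 allows up to 3 counts, or 0.0558 CPM over the doxorubicin group and 0.0535 CPM over the DMSO group, and covers counting error only. IFNE, a type I interferon of epithelia, had 5, 9 and 5 counts with doxorubicin and 3, 3 and 7 with DMSO. The other 20 genes summed to 12 counts with doxorubicin and 0 with DMSO, with no more than 2 in any library. Scarce genes in general leaned toward doxorubicin. Without the filter on low counts the median log2 fold change over 34828 genes was 0.375, against -0.0013 over the 15358 that passed. The share of all genes this scarce that were counted only with doxorubicin was not computed, so nothing is read from this difference.

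Genes around the members in the pathway were taken from wider lists, of which the interferon genes were the first. Of 15 tested sensors and adaptors 8 were higher, 1 was lower and 6 were not called, and their median log2 fold change was 0.18. The share called higher was 53.3%, against 32.7% of all tested genes. RIGI, the sensor of viral RNA ends, had 42.4, 44.6 and 44.9 CPM with doxorubicin and 10.5, 13.5 and 15.7 CPM with DMSO, a log2 rise of 1.73. STING1, the adaptor of cytosolic DNA sensing, had 103, 88.1 and 94.8 CPM with doxorubicin and 34.8, 33.0 and 31.7 CPM with DMSO, a log2 rise of 1.52. The RNA sensors IFIH1 and TLR3 rose by 1.95 and 2.13 (edgeR adjusted p for the 4 from 5.2e-11 to 6.3e-07). SAMHD1, which depletes nucleotides for viral synthesis, was lower at log2 -0.51 (3.8e-06).

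Of 13 tested receptor and JAK-STAT genes 3 were higher, 5 lower and 5 not called (median log2 fold change -0.19), shares of 23.1% and 38.5% against 32.7% and 32.0% of all tested genes. STAT3, which signals mainly for other cytokines, had 523, 479.5 and 498 CPM with doxorubicin and 228, 212 and 198 CPM with DMSO. It was clear of overlap and rose by 1.23 on the log2 scale (edgeR adjusted p = 1.4e-10). The feedback inhibitor SOCS1 rose by 0.54 on the log2 scale, a call lost without DMSO replicate 2 (edgeR adjusted p = 0.0773). IFNGR2, JAK2, TYK2 and PIAS1 were lower, at log2 -0.58, -0.42, -0.26 and -0.54. The type I receptor chain IFNAR1 was lower at log2 -0.19 (edgeR adjusted p = 0.0259), a call lost without doxorubicin replicate 2 (0.0552), doxorubicin replicate 3 (0.108) or DMSO replicate 1 (0.124), and with scaling to library totals (0.0902).

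Of 32 tested genes on a list of other interferon-stimulated genes 20 were higher, 4 lower and 8 not called, and their median log2 fold change was 0.58. The shares were 62.5% higher and 12.5% lower, against 32.7% and 32.0% of all tested genes. TRIM22, an antiviral ubiquitin ligase that is also a p53 target, had 144, 137 and 127 CPM with doxorubicin and 5.25, 4.84 and 4.31 CPM with DMSO. It rose 28.3-fold with little spread in either group (edgeR adjusted p = 1.3e-15), more than any of the 31 tested members. PARP10 rose 5.75-fold and the helicase DDX60 4.91-fold. Other genes cover 8.64% of PARP10 exon bases, with GRINA on the opposite strand the largest overlap. GBP2, TRIM14, PNPT1 and TDRD7 were lower, at log2 -0.88, -0.91, -0.60 and -0.85. Of 15 MHC class I presentation genes 12 were higher (80.0%, against 32.7% of all tested genes), 2 lower and 1 not called, with a median of 0.53. The peptide transporter TAP1 had 359, 298 and 318 CPM with doxorubicin and 45.1, 44.8 and 45.3 CPM with DMSO, a 7.21-fold rise (edgeR adjusted p = 3.8e-14). The trimming peptidases ERAP1 and ERAP2 and the immunoproteasome subunit PSMB9 rose by 1.11, 1.40 and 1.15 on the log2 scale. TAPBP and NLRC5, the class I transactivator, were lower at -0.34 and -0.76.

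**Figure D5:**
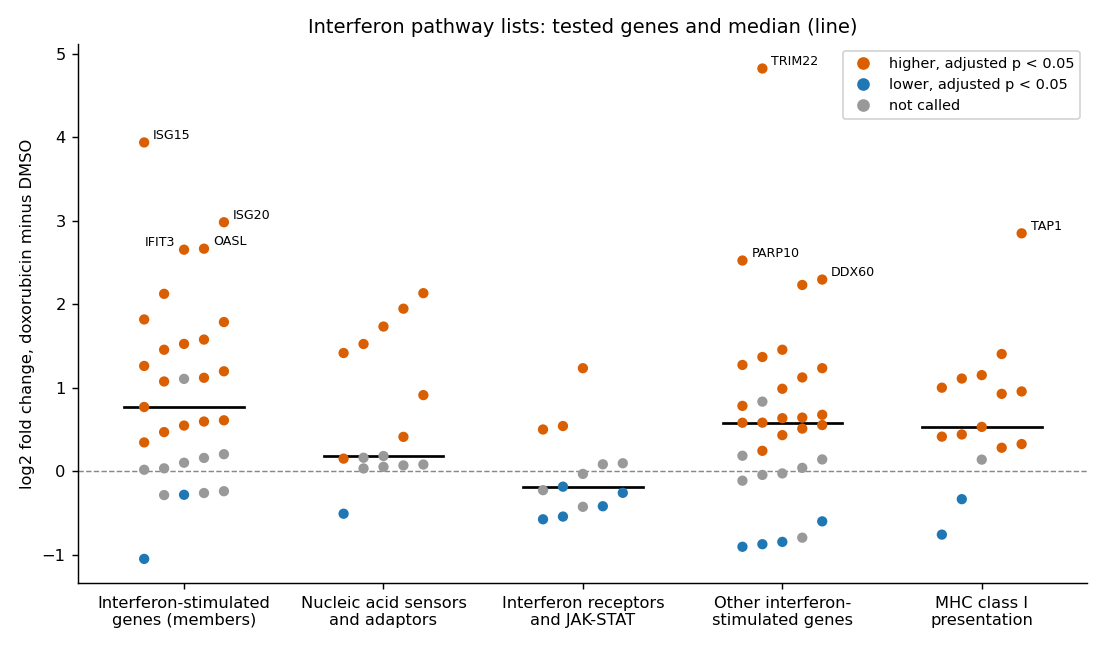
Log2 fold change, doxorubicin minus DMSO, of every tested gene of the interferon-stimulated members and of the wider pathway lists, with 1 point per gene and the list median as a line. Medians run from 0.77 for the members to -0.19 for receptors and JAK-STAT signalling.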

How the data were processed

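Poly(A) RNA of AC16 cells was sequenced from unstranded libraries. The authors deposited a table of raw read counts per gene for all 6 libraries. Per the submitters' processing notes, STAR, SAMtools, Subread and featureCounts were used with GRCh38 (hg38), and versions were not given in the sources used here. Start and end matched GENCODE release 29 for 36 of the 37 members. Unstranded counting cannot separate overlapping genes on opposite strands. TREX1, whose exon bases all lie in other genes, had 0 counts in all 6 libraries. Reads in shared bases were thus probably left out, and levels of overlapped genes may be too low.

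From the counts, 15358 genes passed filterByExpr (minimum count 10). Doxorubicin was compared with DMSO by edgeR 4.0.16 (R 4.3.3) with TMM scaling, robust quasi-likelihood F tests and Benjamini-Hochberg adjustment over all tested genes. The script was tested on simulated data. Alternatives were other scalings and filters, DESeq2 1.42.0, a replicate block and leaving out each library. Replicate libraries differed beyond sampling noise (chi-square per degree of freedom 2.82 to 9.39). CPM levels and SDs describe 3 libraries a group. All members are accounted for. Per-library values are given for tested members averaging at least 1 CPM and for called ones below that. In the wider lists, the named genes are the 4 called ones that changed most (average log2 CPM 1 or above), plus every gene of a direction that held 5 or fewer. A gene of these lists is not reported here by name. UBA7, TTN, NPPB, PTPRC, CD14, CSF1R, CD3E and CLEC4C were named after their values were seen. The members and lists were chosen with earlier results of these data known, and motif matches are descriptions of the letters only.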

Additional observations from a re-analysis of the deposited data

How the results depend on the processing

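The count of 20 higher members was also 20 with RLE scaling, library totals, no filter, a filter of 1 CPM in 3 libraries and DESeq2, and it was 18 to 22 when single libraries were left out. The count of 2 lower members was 3 without a filter and 1 to 2 when single libraries were left out, and it was 1 without DMSO replicate 1 or doxorubicin replicate 2, where the IFIT5 call was lost. Of 718 recomputed gene values over 60 genes, 686 kept direction and side of the threshold, 15 lost the call, 6 gained it and 11 changed sign. All sign changes were in genes not called. IFI27 was at -0.015 without a filter and -0.0034 with DESeq2. With single libraries left out the log2 fold change ran from -0.32 to 1.01 for IFI27, from -0.24 to 1.26 for IRF9, from -0.083 to 0.11 for SAMD9 and from -0.38 to 0.014 for PARP9. The cause was not tested. The labels do not say what a replicate number shares. Same-numbered libraries showed no sign of pairing (correlations of their deviations 0.05, -0.02 and 0.03), and not every library correlated best with its own number. With 3 libraries a group these correlations cannot exclude pairing. With the replicate block 19 members were higher and 2 lower, the calls of OASL (adjusted p = 0.0883) and MX1 (0.0624) were lost, that of DTX3L was gained (0.0486), and 9920 genes were called, against 9934 without it. The excess of doxorubicin replicate 1 was 0.20 (log2) with RLE scaling and with library totals, against 0.18 with TMM (prior count 2). With 250 upstream bases only, 63.3% of members held an ISRE core, and the GAS count was 9 of 30 as before. Depth limits the 6 untested members, whose highest count was 22.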

Other observations

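GBP1 and GBP2, guanylate-binding proteins that respond mainly to interferon-gamma, were lower in doxorubicin replicate 1 than in the other doxorubicin libraries. GBP1 had 13.1, 33.4 and 34.6 CPM in doxorubicin replicates 1 to 3, against 46.9, 46.6 and 47.7 CPM in DMSO replicates 1 to 3. GBP2 had 1.53, 3.32 and 4.03 CPM with doxorubicin and 5.53, 5.00 and 5.85 CPM with DMSO. Replicate 1 was thus the lowest doxorubicin library for this pair, as it was in 39.2% of all tested genes. It was the highest for 22 of the 31 tested members and the lowest for 4, against 37.1% and 39.2% of all tested genes. Of those 22, 17 were called higher with doxorubicin. In these 17 and in the GBP pair, replicate 1 was the doxorubicin library farthest from the DMSO mean. GBP2 was called lower (edgeR adjusted p = 0.00754) and GBP1 was not (0.136). GBP1 was chosen after its values were seen.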
